A study of Setaria viridis with 13 samples.

Results

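The pre-anthesis panicle of green millet (Setaria viridis, accession A10, wild type) was compared with the inflorescence meristem, the structure from which a panicle is built. These are 2 of the 13 tissue and stage samples of the series, taken from hydroponically grown plants at 22 days after germination (stage R, panicle not yet flowering) and at 15 days (stage V5). Both are whole dissected tissues of 1 accession, and how many plants or cells went into each is not given in the labels. Polyadenylated RNA was read on Illumina machines, and each sample has 1 column of values in which 3 biological replicates were merged. No spread between replicates can be seen, so every difference below is a size with no test and no p-value. Sequencing depth is unknown, since the values carry no read counts. All 35471 genes of the table were compared as panicle minus meristem, with the transcript of the highest mean level standing for its gene. The gene IDs of the table are paired with no names in the sources used here, so genes are described by their levels and by where else in the plant they were read, and no tissue marker could be looked up. In bulk tissue, fewer cells of a type and less RNA per cell cannot be told apart.

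In grasses the inflorescence meristem forms when a shoot apex stops making leaves. It gives rise to branch meristems and then to spikelet and floral meristems, and in Setaria some branches end as bristles instead of spikelets. The florets that follow carry lemma and palea, lodicules, stamens and a carpel, and anthesis is the opening of the floret with the release of pollen. A panicle before anthesis therefore holds differentiated and partly green organs, while the inflorescence meristem is made largely of dividing, undifferentiated cells.

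Levels are FPKM (fragments per kilobase, relative to the total of the sample), and differences are on the log2(FPKM + 1) scale, which understates the change of low genes. A gene was tested if its FPKM reached 5 in either sample, which held for 11731 genes (33.1%). Of these, 8659 reached that level in both samples, 947 in the panicle alone and 2125 in the inflorescence meristem alone. The meristem thus had more genes at FPKM 5, with 9606 in the panicle and 10784 in the inflorescence meristem.

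Most genes differed little. The difference was under 1 in size for 8372 of the tested genes (71.4%) and under 0.5 for 4878 (41.6%). The median difference over all tested genes was -0.28, with quartiles of -0.79 and 0.31, so the typical gene read slightly lower in the panicle as deposited. Median-ratio scaling, which sets the samples level over the 9792 genes at FPKM 1 or more in all 13 samples, put the panicle at -0.26 against the inflorescence meristem. Differences as deposited therefore stand against a shift of about that size. The extremes ran from -7.94 to 7.25, and the 1st and 99th percentiles were -2.68 and 3.20.

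**Figure D1:**
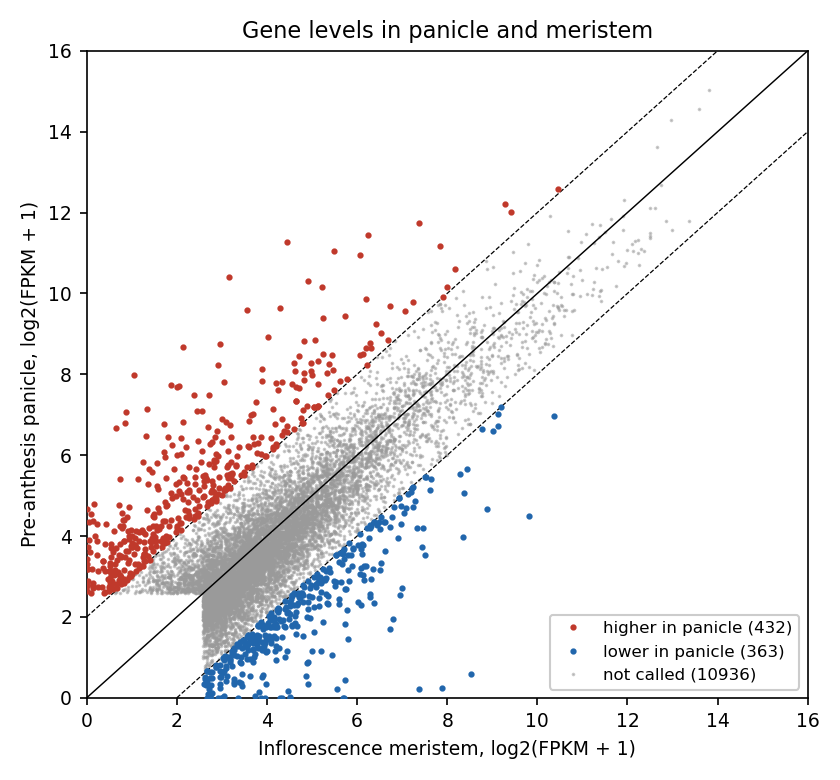
Level of each tested gene in the pre-anthesis panicle (vertical axis) and the inflorescence meristem (horizontal axis), both as log2(FPKM + 1), 1 point per gene. The solid line marks equal levels and the dashed lines a difference of 2 in either direction; 432 genes lie on or above the upper dashed line and 363 on or below the lower.

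Calls rest on size alone. The difference had to be 2 or more, a 4-fold ratio of FPKM + 1, and the higher of both levels had to reach FPKM 5. By this rule 432 genes were higher in the panicle (3.68% of those tested) and 363 were lower (3.09%). The calls form no separate cluster at the threshold. Between 2 and 2.1 lay 50 of the higher genes, and a further 50 lay between 1.9 and 2. On the lower side the numbers were 63 just inside and 58 just outside. After median-ratio scaling 515 genes were higher and 217 lower, so the share of higher genes among those called was 70.4%, against 54.3% as deposited.

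The balance between the directions depended on the size asked for, on scaling and on the pseudocount, the value added to FPKM before the logarithm. With a difference of 1 sufficing, 1271 genes were higher and 2088 lower, so 37.8% of those called were higher in the panicle. At 3 there were 157 higher and 76 lower (67.4% higher), and at 5 there were 21 and 9. As deposited, small differences therefore leaned towards the meristem and large differences towards the panicle. With median-ratio scaling, run at these sizes after the data were seen, the balance at 1 was the opposite, with 1603 higher and 1217 lower genes (56.8% higher), and at 3 it was 175 and 52 (77.1% higher). The rise in the share of higher genes with the size asked for was seen as deposited and after both kinds of rescaling. After equal-sum scaling the share was 41.0% at 1 and 70.3% at 3. At a size of 2, a pseudocount of 0.1 in place of 1 gave 526 higher and 555 lower genes (48.7% higher). A pseudocount of 5 gave 198 and 103 (65.8% higher).

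**Figure D2:**
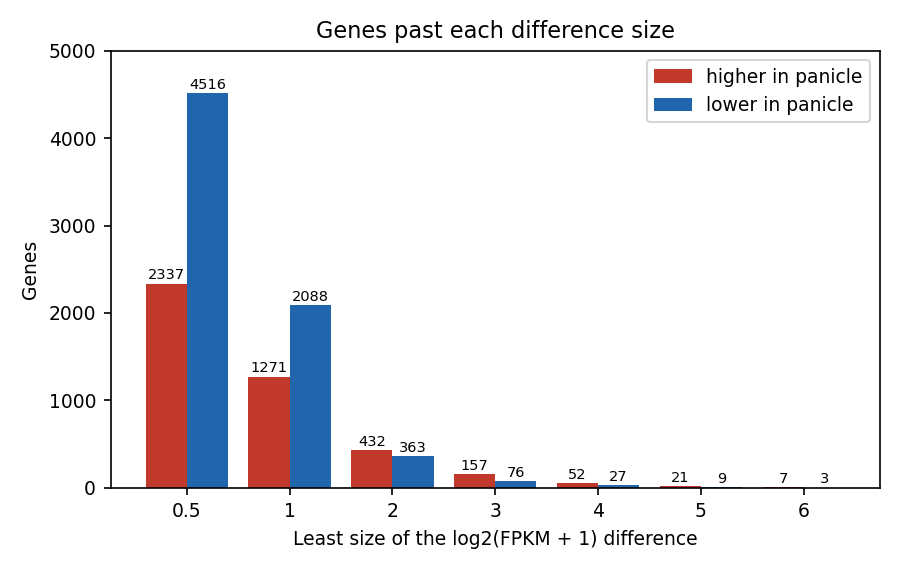
Number of tested genes (vertical axis) whose log2(FPKM + 1) differed by at least the size on the horizontal axis, higher (red) or lower (blue) in the pre-anthesis panicle than in the inflorescence meristem. Lower genes outnumber higher genes at sizes of 0.5 and 1, and the order is the opposite from 2 upwards. Values are as deposited. With median-ratio scaling higher genes are also more numerous at 1, and with a pseudocount of 0.1 lower genes are more numerous at 2.

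Many of the called genes were close to undetected in the sample where they were lower. Of the higher genes, 9 were listed at 0 in the inflorescence meristem, where a 0 can be a failed estimate, and these had FPKM of 5.28 to 24.6 in the panicle. A further 102 were above 0 but under 1 in the meristem, 147 lay from 1 to under 5, 149 from 5 to under 50, and 25 were at 50 or more. Those 25 were already abundant in the meristem and had a median FPKM of 819 in the panicle. Of the lower genes, 13 were listed at 0 in the panicle, with 5.41 to 51.3 in the meristem. Another 69 were above 0 but under 1 in the panicle, 165 lay from 1 to under 5, 110 from 5 to under 50, and 6 at 50 or more. Both sets thus mixed graded changes between measurable levels with genes read in little more than 1 of the 2 samples.

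The higher genes held 9.55% of the summed FPKM of the panicle and 1.04% of that of the inflorescence meristem. The lower genes held 0.367% in the panicle and 2.59% in the meristem. These shares were fixed in direction by the choice of the genes and describe only how much of the transcript pool was involved.

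The gene with the largest positive difference was Si038106m.g, at FPKM 1360 in the pre-anthesis panicle, against 7.94 in the inflorescence meristem (log2 difference 7.25). It was at 72.5 in the R bulk shoot, 22.9 in the panicle after anthesis and 10.9 in the leaf 3 tip. In the root it was at 1.01, and in the other vegetative samples it was at most 0.110. Its high level was thus read in the pre-anthesis panicle and not in the panicle taken at 25 days.

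Si007524m.g, the higher gene with the next largest difference among those that also reached FPKM 5 in leaf 3, kept its level through anthesis. It was at 2468 in the pre-anthesis panicle, against 20.9 in the inflorescence meristem (log2 difference 6.82), and at 3540 in the post-anthesis panicle, with 227 in the R bulk shoot. It was also read in the coleoptile (108), the V3 bulk shoot (24.5) and the V5 bulk shoot (5.36). The 4 parts of leaf 3 lay between 10.1 and 11.9, and the lowest levels were those of the vegetative meristem (0.682) and the root (0.932).

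On the lower side the largest difference was that of Si011432m.g, at FPKM 0.495 in the pre-anthesis panicle, against 366 in the inflorescence meristem (log2 difference -7.94). It was at 504 in the vegetative meristem, 91.4 in the V5 bulk shoot and 81.1 in the R bulk shoot, but at 0.625 in the V3 bulk shoot. The post-anthesis panicle was at 2.14, the root at 1.11, the coleoptile at 0.0718, the leaf 3 base at 0.0644 and the leaf 3 tip at 0.0281. In the lower and mid sections of leaf 3 it was listed at 0. Both meristems were thus far above both panicles and every part of leaf 3.

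Si011531m.g, the lower gene with the largest difference among those that reached FPKM 5 in leaf 3, had a broader pattern. It was at 0.157 in the pre-anthesis panicle, against 45.9 in the inflorescence meristem (log2 difference -5.34), and at 1.85 in the post-anthesis panicle. Its highest level was in the vegetative meristem (277), followed by the coleoptile (53.2) and the mid section of leaf 3 (51.7). The V3 and V5 bulk shoots were at 34.3 and 31.9, the root at 25.4, the leaf 3 base at 17.9 and the R bulk shoot at 16.1. The lower section and the tip of leaf 3 were at 7.57 and 7.40, so the panicles were the samples where this gene was lowest.

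The 10 largest differences in each direction include the genes given above. The 10 largest positive differences were all at least 5.80, and in the panicle these genes had FPKM of 102 to 2468, against 0.580 to 20.9 in the meristem. Of these 10, 9 reached FPKM 5 in the panicle after anthesis, and 1 did so in the vegetative meristem. The 10 largest negative differences were all at least 4.85 in size, with FPKM listed from 0 to 21.5 in the panicle and from 45.9 to 903 in the meristem. All 10 of these reached FPKM 5 in the vegetative meristem, 6 did so in the root and 1 in the post-anthesis panicle. Over all tested genes the shares at FPKM 5 were 81.7% in the vegetative meristem, 59.0% in the root and 77.5% in the post-anthesis panicle. The count in the root was thus near that of all tested genes.

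The 11 samples that took no part in the calls show where else these genes were read. On the log2(FPKM + 1) scale the higher genes had medians of 5.03 in the pre-anthesis panicle itself, 4.74 in the panicle after anthesis and 4.36 in the R bulk shoot. In the mid section of leaf 3 the median was 3.67, in the V5 bulk shoot 3.20 and in the lower section of leaf 3 3.12. It was lowest in the vegetative meristem (1.58) and the root (0.73), where all tested genes had medians of 3.69 and 3.05. FPKM 5 was reached by 358 of the 432 genes (82.9%) in the post-anthesis panicle, 338 (78.2%) in the R bulk shoot, then 146 (33.8%) in the vegetative meristem. The same shares over all tested genes were 77.5%, 87.3% and 81.7%.

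The lower genes were near the level of all tested genes in the vegetative meristem and under it in the other samples. In the vegetative meristem their median log2(FPKM + 1) was 3.86, against 3.69 for all tested genes, and 306 of the 363 (84.3%) reached FPKM 5, against 81.7%. In the post-anthesis panicle the median was 1.51, against 3.54, and 89 genes (24.5%) reached FPKM 5, against 77.5%. In the coleoptile the lower genes were at 2.88, against 3.33, and in the root at 2.67, against 3.05. In the R bulk shoot they were at 2.67, against 3.97, at 2.57 in the V3 bulk shoot, against 3.21, and at 2.45 in the V5 bulk shoot, against 3.46. In the 4 parts of leaf 3 their median lay between 0.19 (base) and 0.45 (lower section), against 2.87 to 3.35 for all tested genes there. Among the 11 samples not used, the highest level was in the vegetative meristem for 202 of the lower genes (55.6%, against 23.2% of all tested genes) and in the root for 101 (27.8%, against 19.7%). For the higher genes it was in the post-anthesis panicle for 170 (39.4%, against 14.9%) and in the mid section of leaf 3 for 51 (11.8%, against 4.01%). The R bulk shoot was highest for 69 of them (16.0%), close to the 15.6% of all tested genes.

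**Figure D3:**
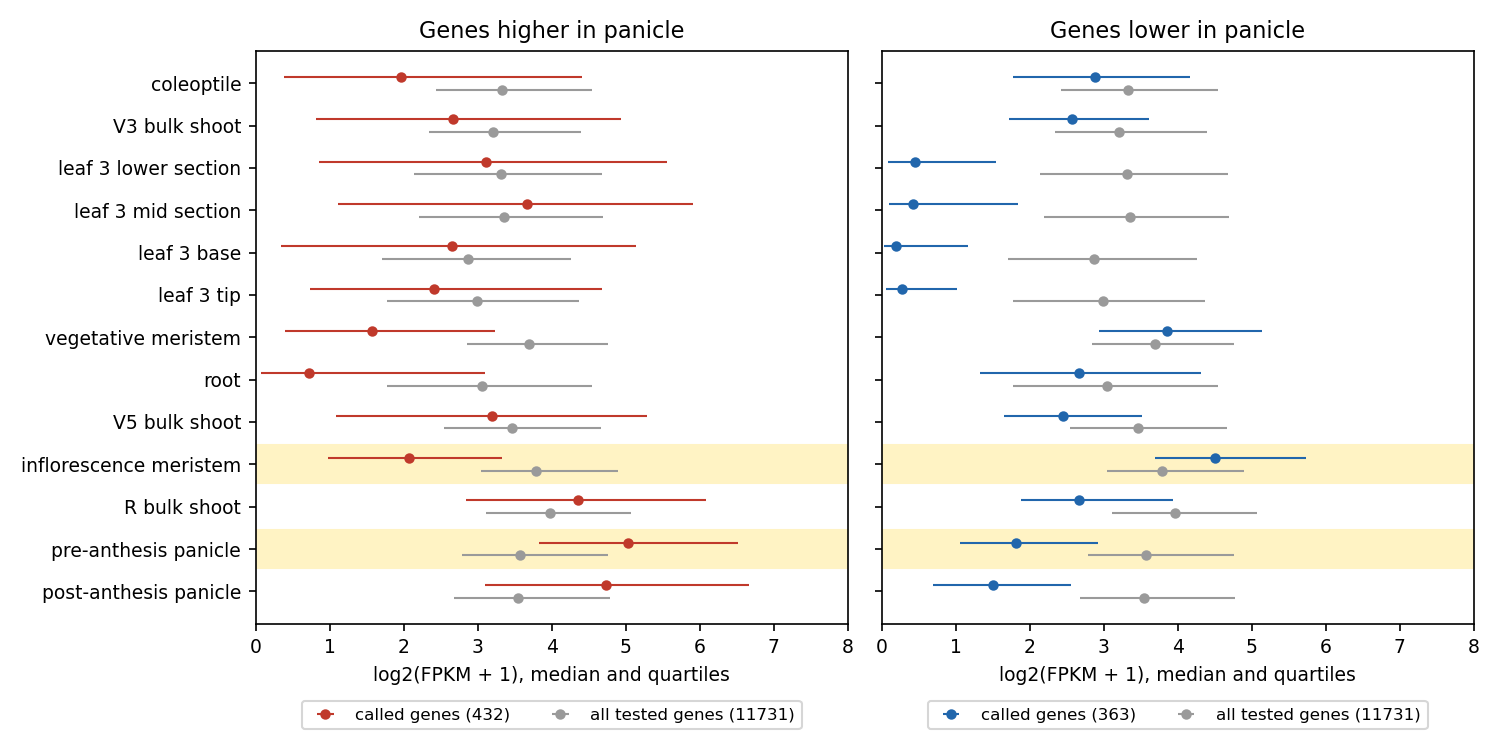
Median (point) and quartiles (bar) of log2(FPKM + 1) in each of the 13 samples for the genes called higher (left, red) and lower (right, blue) in the pre-anthesis panicle, with all tested genes in grey; the shaded rows are the 2 samples used for calling. The median of the lower genes is under 0.5 in all 4 parts of leaf 3, and the median of the higher genes is lowest in the root and the vegetative meristem.

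To read the calls in samples that shared no column with them, the post-anthesis panicle was set against the vegetative meristem. In that pair, 917 of 11840 tested genes were higher by the same rule (7.74%) and 593 were lower (5.01%). The 432 genes called higher in the pre-anthesis panicle had a median difference of 2.66 there (quartiles 1.53 and 4.11), and 276 of them (63.9%) passed the rule in the same direction. All 11731 genes tested in the first comparison had a median of -0.19 in that pair, with 5.51% past the rule on the higher side. The 363 lower genes had a median of -1.95 (quartiles -2.79 and -1.31), and 171 of them (47.1%) passed on the lower side, against 3.76% of all tested genes. Of the higher genes 411 were above 0 in that pair and 21 below. Of the lower genes 360 were below 0 and 3 above. The shares over all 11731 genes were 42.4% above 0 and 57.4% below. A single gene called higher passed the rule on the lower side, and no gene called lower passed on the higher side. Both pairs set a panicle against a meristem of the same plant line, so the post-anthesis pair is not a replicate of the first but a later panicle and an earlier meristem.

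**Figure D4:**
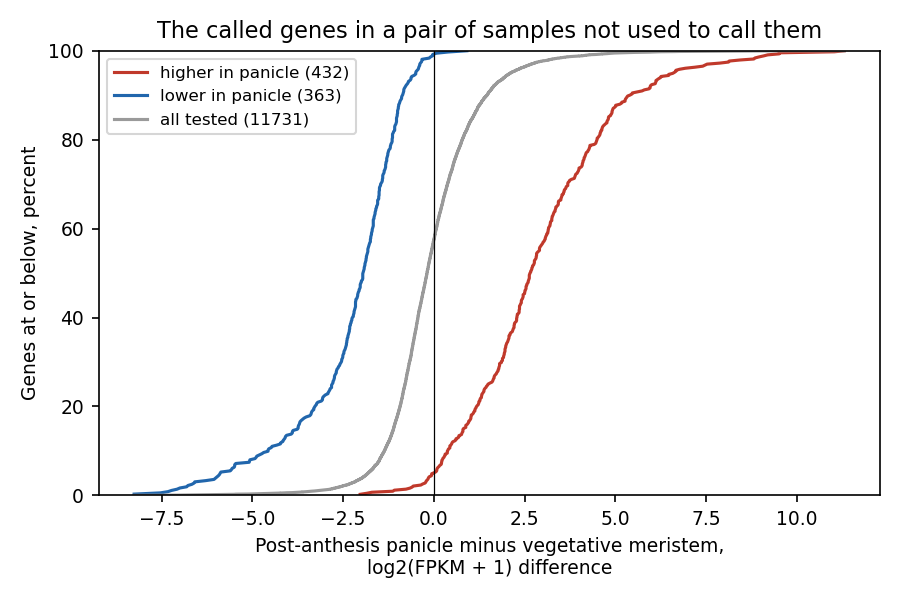
Cumulative percent of genes (vertical axis) by their log2(FPKM + 1) difference between the post-anthesis panicle and the vegetative meristem (horizontal axis), for genes called higher (red) or lower (blue) in the pre-anthesis panicle and for all tested genes (grey). The medians are 2.66, -1.95 and -0.19.

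A pair of whole shoots gave a weaker separation. Between the R bulk shoot and the V5 bulk shoot, 114 of 11542 tested genes were higher (0.988%) and 10 lower (0.0866%). The genes called higher in the panicle had a median of 0.99 in that pair, with 69 (16.0%) past the rule on the higher side. The genes called lower had a median of 0.22, which lies under the 0.47 of all tested genes but above 0. Between the leaf 3 tip and its lower section, 2.92% of 9839 tested genes were higher and 10.4% lower. Of the genes called higher in the panicle, 37 were higher in the tip and 82 lower, and of those called lower, 6 were higher in the tip and 32 lower.

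The called genes were then divided by whether they reached FPKM 5 in the 9 samples of vegetative stages. Leaf-shared genes reached it in any of the 4 parts of leaf 3. Other vegetative genes did not, but reached it in the coleoptile, the V3 or V5 bulk shoot, the root or the vegetative meristem. Reproductive-stage genes stayed under 5 in all 9. That name is only a label, since the inflorescence meristem is itself a V5 sample but is not among the 9. Of the 432 higher genes, 293 (67.8%) were leaf-shared, 24 (5.56%) other vegetative and 115 (26.6%) reproductive-stage. Among all 9606 genes at FPKM 5 in the panicle the shares were 82.7%, 13.5% and 3.82%. Of the 363 lower genes, 80 (22.0%) were leaf-shared, 244 (67.2%) other vegetative and 39 (10.7%) reproductive-stage. Among all 10784 genes at FPKM 5 in the inflorescence meristem the shares were 73.5%, 21.4% and 5.10%. In both called sets the share of leaf-shared genes was thus under that of the background. The vegetative meristem is among the 9 samples and was the one most like the inflorescence meristem (Spearman's rho 0.944 over all genes), so the division is not independent of the level in the inflorescence meristem.

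**Figure D5:**
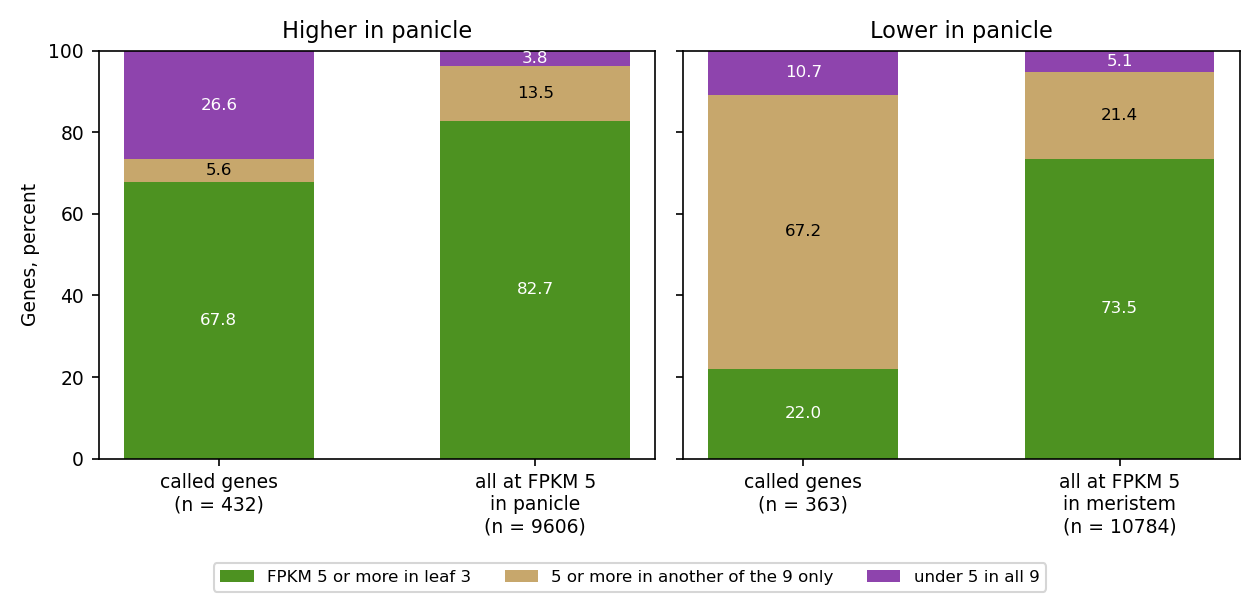
Percent of genes (vertical axis) that reached FPKM 5 in leaf 3 (green), in another of the 9 vegetative-stage samples only (tan) or in none of the 9 (purple), for called genes and for all genes at FPKM 5 in the sample where the called genes are higher. Genes under 5 in all 9 make up 26.6% of the higher genes and 3.82% of their background.

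The 293 leaf-shared genes that were higher in the panicle are set beside all 7945 leaf-shared genes at FPKM 5 in the panicle, since reaching FPKM 5 there and in leaf 3 is what chose them. Their median log2(FPKM + 1) was 5.51 in the pre-anthesis panicle, against 2.67 in the inflorescence meristem, with 5.31 in the R bulk shoot, 5.08 in the mid section of leaf 3 and 4.35 in the V5 bulk shoot. In the vegetative meristem it was 2.38 and in the root 1.34. The 7945 genes had medians of 4.16 in the pre-anthesis panicle, 4.58 in the R bulk shoot, 4.08 in the mid section of leaf 3, 4.12 in the V5 bulk shoot, 4.16 in the vegetative meristem and 3.67 in the root. Over the 11 samples not used for calling, the post-anthesis panicle was highest for 88 of the 293 (30.0%, against 15.1% of the 7945). Within leaf 3 the mid section was highest for 51 (17.4%, against 5.34%) and the tip for 42 (14.3%, against 7.87%). The base was highest for 20 (6.83%, against 1.96%) and the lower section for 19 (6.48%, against 10.7%). In the V5 bulk shoot against the vegetative meristem, where 7.83% of 11347 tested genes were higher and 2.32% lower, 127 of the 293 (43.3%) were higher and none was lower. Of the 7945 leaf-shared genes, 8.60% were higher in that pair and 1.51% lower. The medians there were 1.64 for the 293 genes and -0.27 for the 7945. This pair shares the vegetative meristem with the post-anthesis pair above, in which the medians were 2.77 for the 293 genes and -0.03 for the 7945.

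The 115 reproductive-stage genes that were higher in the panicle are set beside all 367 genes of the class at FPKM 5 there. The median log2(FPKM + 1) of the 115 was 3.90 in the pre-anthesis panicle, against 0.95 in the inflorescence meristem. In the post-anthesis panicle it was 2.94 and in the R bulk shoot 2.36, where the 367 had 2.83 and 2.52. Low vegetative-stage levels were fixed by the class, which stays under FPKM 5 in all 9 of those samples. No median there was above 0.51 for the 115 or above 1.32 for the 367. FPKM 5 was reached by 66 of the 115 (57.4%) in the post-anthesis panicle and by 48 (41.7%) in the R bulk shoot. Of the 367, 62.1% and 45.8% reached it there. With the 2 calling samples left out, the post-anthesis panicle was highest for 76 of the 115 (66.1%, against 62.9% of the 367). The R bulk shoot was highest for 37 (32.2%, against 30.5%). Between the R and V5 bulk shoots the median of the 115 was 1.78, and 39 (33.9%) passed the rule on the higher side. The class keeps every member under FPKM 5 in the V5 bulk shoot, so this is read beside all 367 genes of the class at FPKM 5 in the panicle, which had a median of 1.01 with 13.4% past the rule. Under 1 in all 9 vegetative-stage samples were 55 of the 115 genes and 74 of the 367.

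The 24 other vegetative genes that were higher in the panicle form the smallest class on that side. Their median log2(FPKM + 1) was 4.20 in the pre-anthesis panicle, against 1.33 in the inflorescence meristem. In the root it was 3.17, and 17 of them (70.8%) reached FPKM 5 there, against 52.7% of all 1294 genes of the class at FPKM 5 in the panicle. Of the 11 samples not used for calling, the root was highest for 12 of the 24 (50.0%, against 23.8% of the 1294). In the vegetative meristem 7 of the 24 (29.2%) reached FPKM 5, against 81.3%. The call asks for a lower level in the inflorescence meristem, which the vegetative meristem most resembles. Every member must still reach FPKM 5 in a vegetative-stage sample other than leaf 3. The larger shares in the root can thus be partly fixed by the choice of genes.

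Most lower genes reached FPKM 5 in a vegetative-stage sample but in no part of leaf 3. For the 244 other vegetative genes the median log2(FPKM + 1) was 1.88 in the pre-anthesis panicle, against 4.53 in the inflorescence meristem. In the vegetative meristem the median was 3.79, and 227 of them (93.0%) reached FPKM 5 there, against 84.5% of all 2303 genes of the class at FPKM 5 in the inflorescence meristem. The coleoptile followed at 2.90, the root at 2.68 and the R bulk shoot at 2.61. Among the 11 samples not used for calling, the vegetative meristem was highest for 154 of them (63.1%, against 47.4% of the 2303). The root was highest for 60 of them (24.6%, against 24.5%). In the post-anthesis pair their median was -1.96, and 119 (48.8%) passed the rule on the lower side, against -0.65 and 8.73% for the 2303 genes.

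The 80 leaf-shared lower genes were broadly read. Their medians were 3.09 in the pre-anthesis panicle, against 5.86 in the inflorescence meristem, with 5.52 in the vegetative meristem, 4.96 in the root and 4.94 in the R bulk shoot. Within leaf 3 the medians were 4.30 (lower section), 4.41 (mid section), 3.54 (base) and 2.35 (tip). Of these genes 32 (40.0%) were lower by the rule in the tip, compared with the lower section, and 6 (7.50%) were higher. Among all 7931 leaf-shared genes at FPKM 5 in the inflorescence meristem 8.31% were lower in the tip and 1.30% higher. The leaf-shared genes that were higher in the panicle also had more of both than that, with 28.0% lower in the tip and 12.6% higher. In the post-anthesis pair 52 of the 80 (65.0%) passed on the lower side, with a median of -2.70, against 2.94% and -0.16 for the 7931.

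The 39 reproductive-stage lower genes reached FPKM 5 in the inflorescence meristem alone, a V5 sample, and in none of the R-stage samples. Their medians were 0.86 in the pre-anthesis panicle, against 3.10 in the inflorescence meristem, and all 39 were highest in the inflorescence meristem. That top sample was fixed by the class and the call, except against the R bulk shoot and the post-anthesis panicle. Of all 550 genes of the class at FPKM 5 in the inflorescence meristem, 75.1% were highest there. The next sample was the vegetative meristem at a median of 1.89, where the 550 had 2.1. In the post-anthesis pair all 39 were below 0, with a median of -1.14, against 53.1% and -0.08 for the 550. None of the 39 passed the rule, since none reached FPKM 5 in the vegetative meristem or the post-anthesis panicle.

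The most abundant transcripts were largely the same in both tissues. Of the 10 genes with the highest FPKM, 7 were shared between the pre-anthesis panicle and the inflorescence meristem, and of the highest 100, 66 were. The 4 most abundant genes of the panicle had FPKM of 12677 to 33224 there and of 6426 to 14262 in the meristem. They made up 11.9% of the summed FPKM in the panicle and 5.28% in the meristem. None was called, as their differences lay between 0.97 and 1.31. In the vegetative meristem they made up 5.62%, in the root 0.00496% and in the post-anthesis panicle 3.57%. FPKM is relative to each sample's total, and scaling each sample to an equal sum leaves these shares as they are. Whether the larger share in the panicle bears on the values of the other genes there was not tested.

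As a whole the panicle was most like the post-anthesis panicle (Spearman's rho 0.945 across all genes) and the R bulk shoot (0.941), with the inflorescence meristem at 0.925. Seen from the inflorescence meristem, the vegetative meristem came first (0.944), and the coleoptile, the pre-anthesis panicle and the R bulk shoot stood level at 0.925 each. These are descriptions over genes, which do not replicate each other, and all samples share the same annotation and kind of scaling.

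The deposited start site offsets, 1 signed whole number of nt per gene, are listed apart from the expression values. The sources used here state neither their sign convention nor their derivation. No direction along the gene is therefore drawn, and the offsets are not taken as independent of expression. An offset was listed for 258 of the 432 higher genes (59.7%), 145 of the 363 lower genes (39.9%) and 4114 of all tested genes (35.1%). The medians were -9, -10 and -5. Negative offsets made up 69.0% of those of the higher genes, 73.1% of those of the lower genes and 57.1% of those of all tested genes.

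Listing of an offset rose with level, so the shares were also read within ranges of FPKM in the higher of the 2 samples. From 5 to under 20, an offset was listed for 41.4% of the higher, 25.9% of the lower and 19.1% of all tested genes, and 80.0%, 77.3% and 67.5% of these were negative. From 20 to under 100 the listed shares were 62.3%, 47.3% and 51.4%, and the negative shares were 68.7%, 73.2% and 55.5%. At 100 or more they were 85.6%, 69.8% and 80.0%, and 60.7%, 66.7% and 45.7%. The greater share of negative offsets among called genes thus stood in each range, in both directions of change. At 100 or more the lower genes had 30 offsets. The negative share also differed by class, from 54.0% for leaf-shared to 88.5% for reproductive-stage genes, over all at FPKM 5 in the panicle. The higher genes had 64.9% and 86.5% in these classes, so the reproductive-stage class showed no excess. Lower leaf-shared genes had 60.0%, against 53.5% over all at FPKM 5 in the meristem. Lower other vegetative genes had 81.7%, against 71.2%.

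Transcripts of the same gene moved together. Of the genes with more than 1 annotated transcript, 2490 had at least 2 transcripts at FPKM 5 in the panicle or the meristem. Within a gene the differences of these transcripts spanned a median of 0.01, and in 1 gene they spanned 1 or more. In 81 genes (3.25%) the leading transcript was not the same in both samples, but in 0 of these did each lead by at least 1 on the log2 scale. No gene had transcripts called in opposite directions. Values this close within a gene limit what these data can show of transcript choice.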

How the data were processed

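Polyadenylated RNA of the 13 samples was made into cDNA by the SMARTer kit and read as paired-end 100 nt reads, per the labels' protocols. STAR and DESeq2 are named in the submitters' processing notes, with no role. The sources used here do not say how the authors merged the 3 replicates, or which build and annotation they used. The deposited table holds log2 values per transcript (40599 transcripts of 35471 genes), rounded by the authors to 2 decimals and running from 0 to 16.6. They were taken as log2(FPKM + 1). FPKM is the unit in the deposited table's name, and the base and the added 1 were inferred from sums of 884742 to 1110010 FPKM per sample. The deposited offsets are signed whole numbers on another scale, in nt.

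The transcript with the highest mean FPKM over 13 samples stood for its gene. Called genes differed by 2 or more, and their higher level reached FPKM 5. The rule was run on simulated data with an assumed noise, which checks the code and gives no measure of error in these calls. Named genes are, in each direction, the largest difference and the largest among the remaining genes at FPKM 5 in leaf 3. The comparison, classes and rules were chosen with earlier results of these data known. A RefSeq gene list (assembly Setaria_viridis_v4.0, 34587 genes) shared none of the IDs, so no sequences or coordinates are given. Depth is unknown and no interval is given. Alternatives covered threshold, FPKM minimum, pseudocount, scaling and choice of transcript. Python 3.11.15, pandas 2.3.3, numpy 2.4.6 and matplotlib 3.10.9 were used.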

Additional observations from a re-analysis of the deposited data

How the results depend on the processing

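No paired analysis was possible because each sample has 1 merged column, and for the same reason no replicate could be left out. Every alternative kept the direction of the medians of the called genes in the post-anthesis panicle minus the vegetative meristem, whose values as reported are 2.66 for higher and -1.95 for lower genes. With a difference of 1 sufficing, 1271 genes were higher and 2088 lower, with medians of 1.75 and -1.11 in that pair. With 3 required these were 157 and 76, with 3.87 and -3.90. An FPKM minimum of 1, or none, gave medians of 2.63 and -1.945, and the median over all tested genes was -0.25 with the minimum of 1 and -0.05 with none. A minimum of 20 gave 263 and 193 genes, medians of 2.91 and -1.97, and -0.19 over all tested genes. A pseudocount of 0.1 gave 526 higher and 555 lower genes, medians of 3.12 and -2.22, and -0.30 over all. A pseudocount of 5 gave 198 and 103, medians of 2.76 and -2.09, and -0.21 over all. Median-ratio scaling gave 515 and 217, medians of 2.53 and -2.16, and 0.000473 over all. Centring on shared genes is meant to level the samples, so a median near 0 is no separate result. Of the 432 and 363 genes as deposited, 426 and 217 were also called with median-ratio scaling. Equal-sum scaling gave medians of 2.68 and -1.99 and -0.23 over all, with 440 and 309 genes called. The reproductive-stage share of the higher genes was 23.1% with median-ratio and 25.7% with equal-sum scaling, against 26.6% as deposited. Run together after the data were seen, median-ratio scaling with a difference of 1 gave 1603 higher and 1217 lower genes and with 3 gave 175 and 52, and equal-sum scaling gave 1286 and 1847 with 1 and 154 and 65 with 3. Summing transcripts gave 2.63, -1.94 and -0.27, and taking the transcript highest in the 2 samples gave 2.67 for the higher genes. The 4 genes given by ID kept their direction under the pseudocount, scaling and transcript alternatives, with Si011531m.g running from -7.48 to -3.30 and Si011432m.g from -9.27 to -6.08. Low genes are the least certain, since the pseudocount, the rounding and unknown depth all bear on them.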

Other observations

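Of the 10 genes with the largest negative differences between the pre-anthesis panicle and the inflorescence meristem, 7 carry ID numbers within a span of 100. Among the 10 largest positive differences the most within such a span was 2. This was noticed after the values were seen, and the files do not say how the ID numbers were assigned.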
